A study of Mus musculus with 12 samples.

Results

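The genes described are 10 members of the interleukin-6 (IL-6) cytokine pathway that signals through the shared receptor gp130. They are the ligand genes Il6, Lif and Osm, the receptor genes Il6ra, Osmr and Il6st, the transcription factor gene Stat3, and the feedback inhibitor genes Socs3, Socs1 and Cish. The members were chosen by symbol, matched through Ensembl identifiers, and make up 10 of the 46078 genes in the count table. Of these, 9 were among the 16527 genes with enough counts for a test, and Il6 was not.

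Ligands of this family bring together a private receptor chain and gp130, the product of Il6st. The paired chains activate Janus kinases (JAKs), which phosphorylate STAT3, and STAT3 moves to the nucleus and switches on target genes. Socs3 is one of those targets, and its protein blocks gp130 and the attached kinases, which closes a negative feedback loop. In the injured central nervous system the pathway is known for its part in astrocyte reactivity and in the inflammatory response of microglia and infiltrating leukocytes.

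The 12 RNA libraries came from mouse spinal cord, 3 in each of 4 groups, all from hosts of the strain C57BL6/cJ. The first group had spinal cord injury (SCI) and a transplant of syngeneic mesenchymal stem cells (MSCs), multipotent stromal cells from a genetically matched donor, and the second had SCI and a transplant of allogeneic MSCs, from an unmatched donor. The third had SCI and no transplant in its labels, which name no control procedure, and the fourth was non-injured cord. The time from injury to collection, the donor strain, the number of cells, and the sex and age of the mice are not stated in the labels. Nothing in the labels ties the 3 samples of each group to different mice, so p-values measure the spread between these samples, which may be technical. Sample numbers in the titles are higher in all transplanted samples than in all others, and fall in separate ranges for the syngeneic and the allogeneic samples. Those of SCI alone and non-injured cord overlap. A set handled apart and the transplant therefore cannot be told apart, either between the transplants or against the groups without a transplant.

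Total counts ran between 8705942, in 1 library of the allogeneic group, and 26151928, in 1 non-injured library. Markers of neurons, oligodendrocytes and astrocytes were detected in every library. Earlier results of these data set 3 libraries apart, syngeneic library 3, allogeneic library 1 and non-injured library 3. The root mean square (RMS) difference of log2 CPM over all tested genes from the mean of the other 2 libraries of the group was 0.534 for that allogeneic library, against 0.446 and 0.459 for the others of its group, and 0.627 for that non-injured library, against 0.408 and 0.414. It was 0.466 for syngeneic library 3, hardly above the 0.464 of syngeneic library 2. Results that change without these 3 libraries are given with and without them. Levels are in CPM, read counts relative to a library total scaled by the trimmed mean of M values (TMM). Calls rest on edgeR's quasi-likelihood test at an adjusted p below 0.05, corrected by the Benjamini-Hochberg method over all 16527 genes.

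Injury without a transplant was accompanied by higher levels of most of the pathway. Against non-injured cord, 8 of the 9 members tested were called higher and 0 lower, where 16.6% of all genes tested were called higher and 9.26% lower. The same 8 genes had SCI libraries that did not overlap with the non-injured ones, against 26.3% of all genes that were higher without overlap. The median log2 fold change of the 9 members was 2.10, against 0.01 over all genes tested. All 8 calls held in each of the 13 alternative settings. The plot of levels by library shows every member in the 4 groups.

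**Figure D1:**
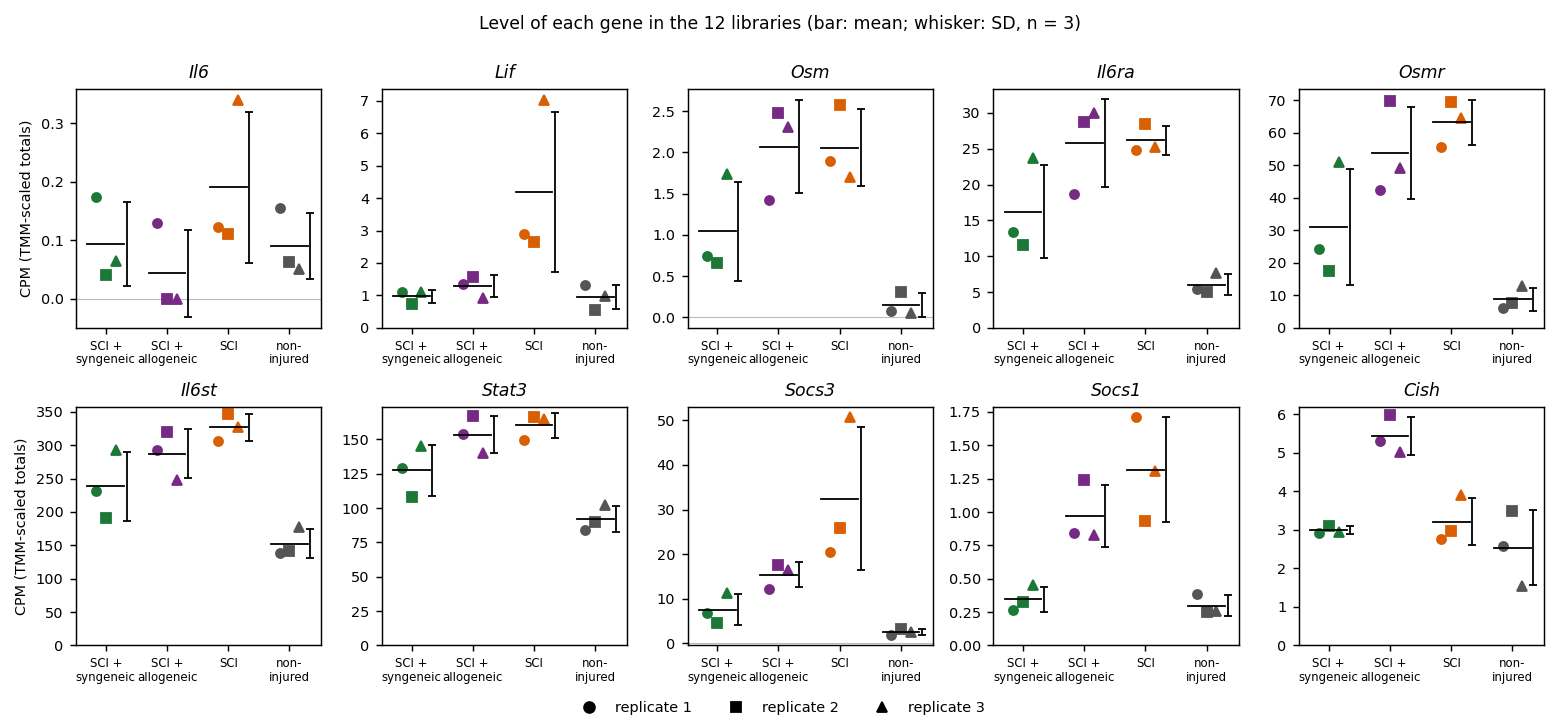
Level of each of the 10 genes in CPM (vertical axes, each with its own scale) in the 3 libraries of each group (horizontal axes; circle, square and triangle are replicates 1, 2 and 3). Bars are group means and whiskers SD (n = 3 per group). The SCI libraries lie above the non-injured libraries in 8 genes, and the allogeneic libraries lie above all others in Cish, at 5.03 to 5.98 CPM.

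Among the ligands, Il6 was close to the limit of detection. Its counts in single libraries were 4, 1 and 1 with syngeneic MSCs, 2, 0 and 0 with allogeneic MSCs, 2, 2 and 6 after SCI alone, and 4, 1 and 1 in non-injured cord. Summed over libraries, 10 counts after SCI against 6 in non-injured cord gave a ratio of 1.96, with a 95% exact binomial interval of 0.646 to 6.56 that covers counting error only. A difference in Il6 was not detectable at this depth in any comparison, since the interval of every ratio between groups included 1.

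Lif encodes leukemia inhibitory factor, which binds gp130 together with the LIF receptor. It lies on chromosome 11 (GRCm38, chr11:4257557-4272514, plus strand), 16530 bases beyond the end of Osm on the same strand. Lif measured 1.09, 0.735 and 1.09 CPM with syngeneic MSCs, 1.36, 1.58 and 0.923 CPM with allogeneic MSCs, 2.88, 2.64 and 7.03 CPM after SCI alone, and 1.31, 0.562 and 0.974 CPM in non-injured cord. All 3 libraries of SCI alone were higher than all 9 others, while the transplanted and the non-injured libraries overlapped. The rise after SCI alone was 2.10 on the log2 scale (SE 0.42, adjusted p = 0.0047). SCI library 3 held 2.55 times the mean of the other 2 libraries of its group, and without it the log2 fold change was 1.51 and the call held.

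Osm encodes oncostatin M, a ligand made chiefly by myeloid cells and T cells, and lies at chr11:4236420-4241026 on the plus strand. It measured 0.743, 0.654 and 1.73 CPM with syngeneic MSCs, 1.43, 2.48 and 2.31 CPM with allogeneic MSCs, 1.90, 2.58 and 1.70 CPM after SCI alone, and 0.0773, 0.312 and 0.0513 CPM in non-injured cord. Every injured library exceeded every non-injured one, and the allogeneic and SCI libraries covered nearly the same range. Osm rose by 3.89 on the log2 scale after SCI alone (SE 0.58, adjusted p = 0.00081). The non-injured counts were only 2, 5 and 1, so the size of this change is loosely fixed, and it was 4.83 without non-injured library 2.

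The private receptor chains rose as well. Osmr, the receptor chain for oncostatin M (chr15:6813577-6874969, minus strand), measured 24.4, 17.4 and 51.1 CPM with syngeneic MSCs, 42.5, 69.7 and 49.0 CPM with allogeneic MSCs, 55.6, 69.3 and 64.6 CPM after SCI alone, and 6.03, 7.62 and 12.8 CPM in non-injured cord. Each injured library held more Osmr than any non-injured one, and syngeneic libraries 1 and 2 were the lowest of the injured. After SCI alone Osmr rose by 2.85 on the log2 scale (SE 0.39, adjusted p = 0.00056).

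Il6ra, the chain that binds IL-6 itself (chr3:89864059-89913196, minus strand), measured 13.4, 11.6 and 23.6 CPM with syngeneic MSCs, 18.7, 28.7 and 30.0 CPM with allogeneic MSCs, 24.8, 28.5 and 25.2 CPM after SCI alone, and 5.45, 5.0 and 7.69 CPM in non-injured cord. The order of the groups was that of Osmr, with syngeneic library 3 just below the SCI libraries. Il6ra rose by 2.11 on the log2 scale after SCI alone (SE 0.28, adjusted p = 0.00043).

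Il6st, the gene of gp130 (chr13:112464070-112510086, plus strand), had the highest level per kilobase of exon among the 10. It measured 231, 190 and 293 CPM with syngeneic MSCs, 293, 320 and 249 CPM with allogeneic MSCs, 306, 347 and 327 CPM after SCI alone, and 138, 142 and 177 CPM in non-injured cord. Its groups stood in the same order as those of the private chains, but closer together. The log2 fold change after SCI alone was 1.10 (SE 0.17, adjusted p = 0.00092). Per kilobase of exon, Il6st averaged 29.4 ± 1.83 CPM after SCI alone and 13.7 ± 1.95 CPM in non-injured cord (SD, n = 3 each). Osmr averaged 5.21 ± 0.577 CPM per kilobase after SCI alone and 0.727 ± 0.291 CPM per kilobase in non-injured cord. The ratio of the common chain to this private chain, both in CPM per kilobase, was thus smaller in injured cord.

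Stat3 (chr11:100885098-100939540, minus strand) measured 129, 108 and 145 CPM with syngeneic MSCs, 154, 167 and 140 CPM with allogeneic MSCs, 150, 166 and 165 CPM after SCI alone, and 83.8, 89.6 and 102 CPM in non-injured cord. It had the smallest called change of the members, a log2 rise of 0.80 after SCI alone (SE 0.13, adjusted p = 0.0012). The SCI and non-injured libraries did not overlap, and those of each group lay close together. Transcript levels of Stat3 do not show how much of its protein is phosphorylated.

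The feedback inhibitors did not move as one. Socs3, Socs1 and Cish encode proteins with an SH2 domain and a SOCS box that dampen cytokine receptors. Socs3 is known to be induced by STAT3, Cish by STAT5, and Socs1 by interferon signalling among others. The promoter stretches of these genes are shown because each carries the letters of the element linked to its known inducer. Sequences are from RefSeq (GRCm38.p6) and run 5′ to 3′ on the gene's own strand, and capitals mark matches to TTCNNNGAA, the letters of a STAT dimer site, in Socs3 and Cish and, in Socs1, to a pair of GAAA runs with 2 bases between them, the letters of an interferon-stimulated element.
Socs3: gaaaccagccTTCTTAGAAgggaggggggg
Cish: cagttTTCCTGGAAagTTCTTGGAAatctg
Socs1: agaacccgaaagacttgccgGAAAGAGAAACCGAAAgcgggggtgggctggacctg
The Socs3 stretch (chr11:117969501-117969530, minus strand) covers positions -164 to -135 from the RefSeq start. The Cish stretch (chr9:107296654-107296683, plus strand) covers positions -5 to 25 and holds 2 matches, and the Socs1 stretch (chr16:10785584-10785639, minus strand) covers positions -103 to -48 and holds 2 overlapping matches. Of 32851 promoter windows of 300 bases, 8.3% held TTCNNNGAA, which reads the same on both strands, and 3.44% held the GAAA pair on either strand. The table of promoters had entries for 9 of the 10 members, and of the other 6 windows none held either set of letters. A match is a description of the sequence and not a measured binding site.

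Socs3 (chr11:117966079-117970047, minus strand) measured 6.91, 4.53 and 11.3 CPM with syngeneic MSCs, 12.2, 17.5 and 16.5 CPM with allogeneic MSCs, 20.6, 25.9 and 50.6 CPM after SCI alone, and 2.01, 3.19 and 2.56 CPM in non-injured cord. It was the only member whose 4 groups were fully separated in their libraries, with SCI alone highest, then allogeneic, then syngeneic, then non-injured. The log2 rise after SCI alone was 3.66 (SE 0.41, adjusted p = 0.0002), and it was 3.19 without SCI library 3, which held 2.18 times the mean of the other 2.

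Socs1 (chr16:10782240-10785536, minus strand) was much less abundant, with 4 to 28 counts in each library. It measured 0.262, 0.327 and 0.450 CPM with syngeneic MSCs, 0.843, 1.24 and 0.830 CPM with allogeneic MSCs, 1.72, 0.933 and 1.3 CPM after SCI alone, and 0.387, 0.25 and 0.256 CPM in non-injured cord. The syngeneic libraries overlapped with the non-injured ones and the allogeneic libraries with those of SCI alone. Socs1 rose by 2.08 on the log2 scale after SCI alone (SE 0.35, adjusted p = 0.0017).

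Cish (chr9:107296026-107302784, plus strand) followed another order. It measured 2.93, 3.10 and 2.96 CPM with syngeneic MSCs, 5.32, 5.98 and 5.03 CPM with allogeneic MSCs, 2.76, 2.97 and 3.91 CPM after SCI alone, and 2.59, 3.50 and 1.54 CPM in non-injured cord. The allogeneic libraries were higher than all 9 others, and the remaining 3 groups overlapped. After SCI alone the log2 fold change was 0.35 (SE 0.26, adjusted p = 0.37), which was not called. Cish, Il6ra and Stat3 share 740, 242 and 72 exon bases with genes on the opposite strand, and their values are uncertain to that extent because whether the counting used strand is not stated.

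Cell markers moved with the injury. The summed level of 6 monocyte and macrophage markers was 862 to 1300 CPM after SCI alone and 32.0 to 42.8 CPM in non-injured cord, and that of 6 microglia markers was 1280 to 1498 CPM after SCI alone and 242 to 349 CPM in non-injured cord. The 6 astrocyte markers summed to 11720 to 13286 CPM after SCI alone and 4682 to 6103 CPM in non-injured cord. The 5 fibroblast markers summed to 975 to 1494 CPM after SCI alone and 53.5 to 167 CPM in non-injured cord, and the 6 neutrophil markers to 65.7 to 85.9 CPM after SCI alone and 11.4 to 16.6 CPM in non-injured cord. The 5 neuron markers were lower, at 3864 to 4765 CPM after SCI alone and 7026 to 7777 CPM in non-injured cord. All of these markers were detected in every group. In bulk tissue, fewer cells of a type and less RNA per cell cannot be told apart, and the part of these markers in the rise of the 8 genes was not tested.

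Genes around the 10 members were described through 7 further lists, chosen with earlier results of these data known. After SCI alone against non-injured cord, 16.6% of all genes tested were called higher and 9.26% lower, the shares to set beside each list. Of 16 genes known to be induced through STAT3, 15 were called higher after SCI alone against non-injured cord and 0 lower, with a median log2 fold change of 2.04. Timp1, an inhibitor of metalloproteinases, was higher by 5.96 on the log2 scale (SE 0.54, adjusted p = 0.00011), and Bcl3, an NF-κB cofactor, by 3.39 (SE 0.36, adjusted p = 0.00016). Serpina3n, an acute-phase protease inhibitor, averaged 661 ± 96.7 CPM after SCI alone and 51.7 ± 3.37 CPM in non-injured cord (SD, n = 3 each). Myc, a growth regulator, averaged 12.7 ± 2.0 CPM after SCI alone and 3.09 ± 0.318 CPM in non-injured cord (SD, n = 3 each). Gfap in this list is also an astrocyte marker.

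Of 9 other ligands of the family only 4 had enough counts to be tested, and all 4 were called higher after SCI alone. Clcf1, a ligand of the ciliary neurotrophic factor receptor, averaged 6.23 ± 2.17 CPM after SCI alone and 1.32 ± 0.376 CPM in non-injured cord, a log2 fold change of 2.26 (SE 0.31, adjusted p = 0.00051). Ebi3, a subunit of IL-27, and Ctf1, cardiotrophin 1, had log2 fold changes of 1.71 and 1.3. The calls of Clcf1, Ebi3 and Ctf1 held in all 13 alternatives.

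The other receptors showed both directions. Of 4 tested, Il27ra, the IL-27 receptor chain, was higher after SCI alone by 2.31 on the log2 scale (SE 0.52, adjusted p = 0.0086). Il27ra kept its call in all 13 alternatives. Cntfr, the binding chain of the ciliary neurotrophic factor receptor, averaged 79.5 ± 6.71 CPM after SCI alone and 98.5 ± 3.07 CPM in non-injured cord (SD, n = 3 each), and fell by 0.31 on the log2 scale (adjusted p = 0.023). This call was lost in 6 of 13 alternatives, among them the fit of only the 2 groups compared (adjusted p = 0.06).

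Of 9 Janus kinases and other STATs tested, 6 were called higher after SCI alone, led by Stat5a, Stat6, Jak3 and Stat5b, and limma-voom called 5. The call of Stat5b, with a log2 fold change of 0.51 (adjusted p = 0.022), was lost in 5 of 13 alternatives, among them that without the 3 libraries set apart (adjusted p = 0.053). Stat6, the factor of IL-4 signalling, averaged 31.1 ± 4.65 CPM after SCI alone and 7.79 ± 1.56 CPM in non-injured cord (SD, n = 3 each). Of 9 other brakes on STAT signalling, 3 were called higher, the phosphatase genes Ptpn6 and Ptpn1 and the adaptor gene Sh2b3, with log2 fold changes of 2.91, 0.99 and 0.86. All 3 tested cytokines that act upstream of Il6 and Lif were called higher, with log2 fold changes of 2.87 for Il1a, 3.12 for Il1b and 3.94 for Tnf.

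The other SOCS genes were not called after SCI alone in the main fit, where 16.6% of all genes were called higher and 9.26% lower. With so few genes, a count of 0 is near those shares. Of Socs2, Socs4, Socs5, Socs6 and Socs7, 0 were called by edgeR, DESeq2 or limma-voom after SCI alone, and 2 had an unadjusted p below 0.05, where 21.9% of all genes were higher at that level. Those were Socs6, with a log2 fold change of 0.44 (adjusted p = 0.09), and Socs7, with one of 0.33 (adjusted p = 0.13). Without the 3 libraries set apart, 2 of the 5 were called higher, where 5062 of 16770 genes were called in either direction. The plot of calls per gene list sets the lists side by side.

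**Figure D2:**
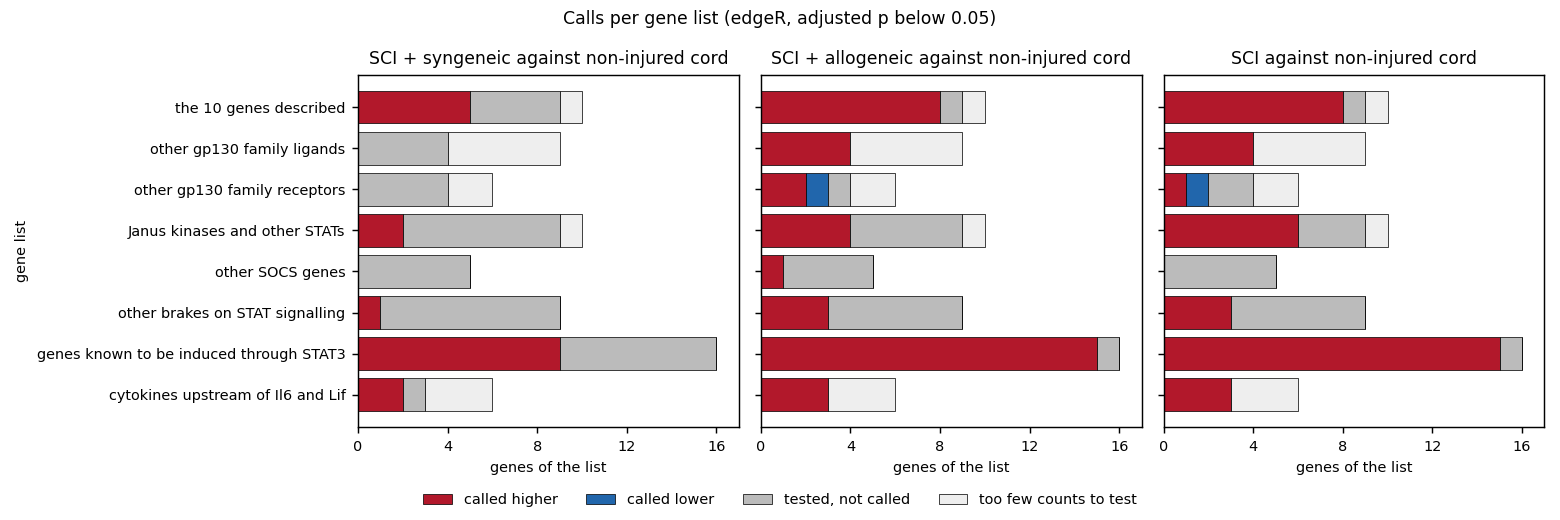
Number of genes in each list (horizontal axes) that were called higher, called lower, tested but not called, or too low to test, for each injured group against non-injured cord (1 panel per comparison). After SCI alone 15 of 16 genes known to be induced through STAT3 and 0 of 5 other SOCS genes were called higher, where 16.6% of all genes tested were.

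Transplanted cords were compared with SCI alone to ask how the pathway differed with each kind of donor cell. With syngeneic MSCs, all 9 tested members had a negative log2 fold change against SCI alone, with a median of -1.03, against 0.0041 over all genes tested, where 49.4% of genes were negative. None of these changes was called by edgeR, where 0.0303% of all genes were called lower and 0.00605% higher. The number of members called was 3 with DESeq2 and 0 with limma-voom, and 8 of 9 had an unadjusted p below 0.05, against 7.96% of all genes that were lower at that level. For 7 members the syngeneic libraries all lay below those of SCI alone, a separation that 11.5% of all genes showed in that direction. The largest differences were those of Socs3, Lif and Socs1.

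Socs3 averaged 7.58 ± 3.44 CPM with syngeneic MSCs and 32.4 ± 16 CPM after SCI alone (SD, n = 3 each), a log2 fold change of -2.11 (SE 0.37, adjusted p = 0.11). Lif averaged 0.973 ± 0.206 CPM with syngeneic MSCs and 4.18 ± 2.47 CPM after SCI alone, a log2 fold change of -2.11 (SE 0.43, adjusted p = 0.15). Socs1 averaged 0.346 ± 0.0952 CPM with syngeneic MSCs and 1.32 ± 0.391 CPM after SCI alone, a log2 fold change of -1.94 (SE 0.34, adjusted p = 0.11). These 3 genes were the members that DESeq2 called, with adjusted p of 2.6e-05 for Socs3, 0.0029 for Lif and 0.022 for Socs1, where DESeq2 called 0.593% of all genes lower.

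The ligand Osm and the receptor chains differed less. Log2 fold changes with syngeneic MSCs against SCI alone were -1.04 for Osmr (SE 0.36, adjusted p = 0.31), -1.03 for Osm (SE 0.44, adjusted p = 0.35) and -0.70 for Il6ra (SE 0.26, adjusted p = 0.32). They were -0.46 for Il6st, -0.33 for Stat3 and -0.10 for Cish. For Osm, syngeneic library 3, at 1.73 CPM, overlapped with the lowest library of SCI alone, at 1.70 CPM.

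Several members were spread by 1 library of the syngeneic group. Syngeneic library 3 had 1240 CPM of summed monocyte and macrophage markers and 927 CPM of summed fibroblast markers. Libraries 1 and 2 of that group had 363 and 242 CPM of the first sum and 124 and 182 CPM of the second. The levels of Osm, Osmr, Socs3 and Il6ra in library 3 were 2.48, 2.44, 1.98 and 1.89 times the mean of the other 2 libraries, while that of Il6st was 1.39 times this mean and its Lif level was close to that of library 1. Without it 6 members were called lower against SCI alone, where 4.76% of all genes were: Il6ra, Il6st, Lif, Osmr, Socs1 and Socs3. Without the 3 libraries set apart, 8 members were called lower, all but Cish, where 9.6% of all genes were. Syngeneic library 3 was the highest of its group in Osm, Osmr, Il6st, Il6ra, Stat3, Socs1 and Socs3. Leaving it out therefore lowers the syngeneic mean of these genes by construction.

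The sums of 5 cell marker lists differed without overlap between syngeneic MSCs and SCI alone. The 6 neutrophil markers summed to 32.1 to 52.1 CPM with syngeneic MSCs and 65.7 to 85.9 CPM after SCI alone, and the 5 fibroblast markers to 124 to 927 CPM with syngeneic MSCs and 975 to 1494 CPM after SCI alone. The 5 endothelium markers summed to 194 to 215 CPM with syngeneic MSCs and 263 to 326 CPM after SCI alone, and the 4 B cell markers to 0.45 to 1.31 CPM with syngeneic MSCs and 2.27 to 3.06 CPM after SCI alone. The 5 neuron markers were higher instead, at 4917 to 6967 CPM with syngeneic MSCs and 3864 to 4765 CPM after SCI alone. Microglia markers summed to 814, 621 and 1341 CPM in syngeneic libraries 1, 2 and 3, against 1280 to 1498 CPM after SCI alone. Monocyte and macrophage markers summed to 363, 242 and 1240 CPM in these libraries, against 862 to 1300 CPM after SCI alone. Both sums overlapped with SCI alone through syngeneic library 3 only. The part of the cell markers in the lower levels of the members was not tested.

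With allogeneic MSCs, most of the pathway stayed near its level after SCI alone, but Lif and Socs3 were lower in every library. No member was called by edgeR against SCI alone, where 0.0182% of all genes were called lower and 0.169% higher, and 0 were called by DESeq2 or limma-voom. Lif, Socs3 and Cish had an unadjusted p below 0.05, as did 1.17% of all genes that were lower and 1.77% that were higher. They were also the members whose libraries did not overlap, against 3.29% of all genes that were lower and 4.2% that were higher without overlap. The receptor chains lay close to their level after SCI alone, with log2 fold changes of -0.24 for Osmr (SE 0.36), -0.19 for Il6st (SE 0.16) and -0.02 for Il6ra (SE 0.26). Osm had one of -0.01 (SE 0.42) and Stat3 one of -0.06 (SE 0.13), and the signs of Il6ra, Osm and Stat3 changed under some of the alternatives. Socs1 was lower by more, with a log2 fold change of -0.48 (SE 0.32), but its libraries overlapped with those of SCI alone.

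Lif averaged 1.29 ± 0.335 CPM with allogeneic MSCs and 4.18 ± 2.47 CPM after SCI alone (SD, n = 3 each), a log2 fold change of -1.74 (SE 0.43, adjusted p = 0.33). Socs3 averaged 15.4 ± 2.82 CPM with allogeneic MSCs and 32.4 ± 16 CPM after SCI alone, a log2 fold change of -1.08 (SE 0.36, adjusted p near 1). Without SCI library 3, the highest in both genes, these values were -1.14 for Lif and -0.59 for Socs3. Cish averaged 5.44 ± 0.488 CPM with allogeneic MSCs and 3.21 ± 0.616 CPM after SCI alone, a log2 fold change of 0.75 (SE 0.26, unadjusted p = 0.013) that was not called.

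Immediate early genes, which cells switch on within minutes of a stimulus, were lower in sum with either transplant than after SCI alone. The summed level of 8 of them, all detected in every library, was 169 to 275 CPM with syngeneic MSCs, 260 to 329 CPM with allogeneic MSCs, 431 to 489 CPM after SCI alone and 218 to 220 CPM in non-injured cord. Fos averaged 33.3 CPM with syngeneic MSCs and 45.8 CPM with allogeneic MSCs, against 122 CPM after SCI alone, with log2 fold changes of -1.88 (SE 0.23, adjusted p = 0.015) and -1.42 (SE 0.23, adjusted p = 0.03). All 8 had a negative log2 fold change with syngeneic MSCs and 7 with allogeneic MSCs, where that of Atf3 was 0.07, and Fos was the only 1 of the 8 called in either comparison. Both calls of Fos were lost when any single library of SCI alone was left out, and the first also without syngeneic library 1 or 2, since 0 genes were then called. The sum separated SCI alone from the other 3 groups, as Lif did. The part of immediate early expression in the levels of Lif and Socs3 was not tested.

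The direct comparison of the transplants gave the same direction for all 9 tested members. With syngeneic MSCs their log2 fold changes against allogeneic MSCs were all negative, with a median of -0.80, against 0.02 over all genes tested, where 47.3% of genes were negative. No member was called by edgeR, DESeq2 or limma-voom, where edgeR called 0.593% of all genes lower and 0.0182% higher. An unadjusted p below 0.05 was reached by 6 members, against 10.1% of all genes that were lower at that level. Socs1, Socs3 and Cish had syngeneic libraries that all lay below the allogeneic ones, as 7.03% of all genes did. The other tested members overlapped. For Osm, Osmr, Il6ra, Il6st and Stat3 only syngeneic library 3 reached the range of the allogeneic libraries, so this division of the members rests on 1 library.

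Socs1 averaged 0.346 ± 0.0952 CPM with syngeneic MSCs and 0.971 ± 0.234 CPM with allogeneic MSCs (SD, n = 3 each), a log2 fold change of -1.46 (SE 0.36, adjusted p = 0.14). For Socs3 the log2 fold change was -1.03 (SE 0.37, adjusted p = 0.26) and for Cish -0.85 (SE 0.26, adjusted p = 0.22). It was -1.02 for Osm, -0.80 for Osmr and -0.68 for Il6ra, with adjusted p of 0.32, 0.35 and 0.28. Il6st and Stat3 had smaller ones, -0.27 (SE 0.16, adjusted p = 0.47) and -0.27 (SE 0.13, adjusted p = 0.36). Lif had the smallest difference for its error, -0.37 (SE 0.46, adjusted p = 0.74). Without syngeneic library 3, the members called lower were Il6ra, Osmr, Socs1 and Socs3, where 6.73% of all genes were. Without the 3 libraries set apart Osm and Cish were called as well, where 14.2% of all genes were called lower. In Osm, Osmr, Il6ra and Socs3, allogeneic library 1 was the lowest of its group and syngeneic library 3 the highest of its group. Leaving these libraries out therefore widens the difference in those genes by construction.

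Markers of T and NK cells differed strongly between the transplants. The 7 T and NK cell markers summed to 1.76 to 4.11 CPM with syngeneic MSCs and 38.1 to 75.3 CPM with allogeneic MSCs, against 3.86 to 5.27 CPM after SCI alone and 0.116 to 0.667 CPM in non-injured cord. All 7 were detected in the injured groups, and Cd3d and Cd8a were at 0 in non-injured cord. Cish, which is known to be induced by STAT5-activating cytokines in T cells, was highest in the same group. Without overlap as well, neutrophil markers summed to 32.1 to 52.1 CPM with syngeneic MSCs and 60.6 to 79.2 CPM with allogeneic MSCs. Endothelium markers summed to 194 to 215 CPM with syngeneic MSCs and 228 to 248 CPM with allogeneic MSCs. Neuron markers were higher with syngeneic MSCs, at 4917 to 6967 CPM, than with allogeneic MSCs, at 4262 to 4829 CPM. The 4 B cell markers overlapped, at 0.45 to 1.31 CPM with syngeneic MSCs and 1.23 to 2.44 CPM with allogeneic MSCs. The microglia sum and the monocyte and macrophage sum overlapped through syngeneic library 3 only, which had 1341 and 1240 CPM. With allogeneic MSCs these sums were 1291 to 1725 CPM and 801 to 1628 CPM. The part of all these markers in the levels of Cish and the other members was not tested.

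**Figure D3:**
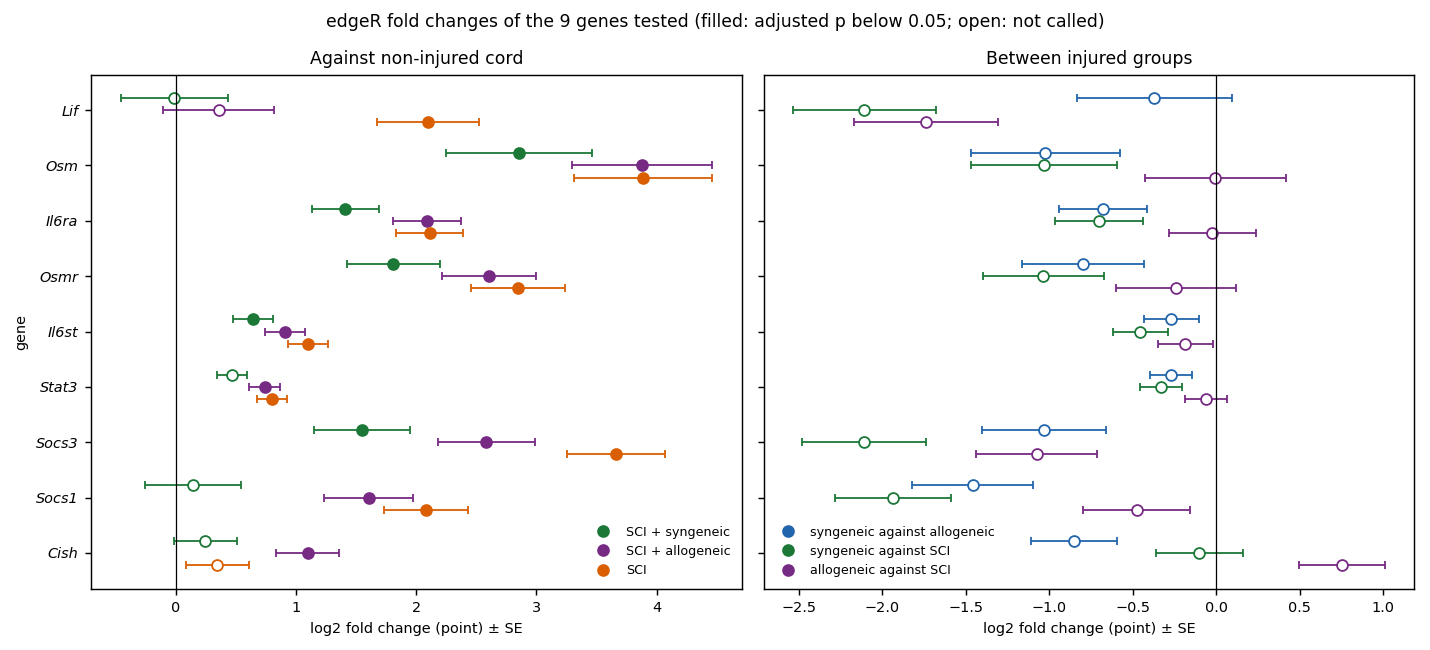
Log2 fold changes (horizontal axes) with SE from edgeR for the 9 genes tested, against non-injured cord in the left panel and between injured groups in the right panel. Filled points have an adjusted p below 0.05. In the left panel Lif and Socs1 with syngeneic MSCs lie near 0, at -0.01 and 0.14, and in the right panel every point is open.

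Against non-injured cord, the transplanted groups still showed much of the injury response. With syngeneic MSCs, 5 members were called higher, namely Osm, Osmr, Il6ra, Il6st and Socs3, and 0 lower, where 4.92% of all genes were called higher and 0.424% lower. Their log2 fold changes were 2.86 for Osm (SE 0.61, adjusted p = 0.018), 1.81 for Osmr (SE 0.38, adjusted p = 0.018), 1.41 for Il6ra (SE 0.28, adjusted p = 0.013), 0.64 for Il6st (SE 0.17, adjusted p = 0.045) and 1.55 for Socs3 (SE 0.40, adjusted p = 0.047). Stat3 fell just short, at 0.47 (SE 0.13, adjusted p = 0.053). The log2 fold changes of Lif, at -0.01 (SE 0.45), Socs1, at 0.14 (SE 0.40), and Cish, at 0.25 (SE 0.26), were smaller than their errors. Of the 5 calls 1 was left without syngeneic library 3, that of Il6ra, where 2.54% of all genes were called higher. In addition 0 were left without non-injured library 1, and only that of Osm without non-injured library 2.

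With allogeneic MSCs, 8 members were called higher against non-injured cord and 0 lower, where 16.7% of all genes were called higher and 8.17% lower. Lif was the exception, with a log2 fold change of 0.36 (SE 0.46, adjusted p = 0.61). Cish was among those called, with a log2 fold change of 1.10 (SE 0.26, adjusted p = 0.01), which was not called when only the 2 groups compared were fitted (adjusted p = 0.057). The other values were 3.88 for Osm, 2.61 for Osmr, 2.59 for Socs3, 2.09 for Il6ra, 1.60 for Socs1, 0.91 for Il6st and 0.74 for Stat3. These comparisons share the non-injured libraries with that of SCI alone.

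Over the 4 groups, Osmr, Il6ra, Il6st, Stat3, Socs3 and Socs1 shared 1 order of mean levels, with SCI alone highest, then allogeneic, then syngeneic, then non-injured. Neighbours in this order were separated beyond the spread of their libraries at every step for Socs3. For Osmr, Il6ra, Il6st and Stat3 they were separated at the step between syngeneic and non-injured cord, and for Socs1 at the step between syngeneic and allogeneic MSCs. Of these separated steps, those called by edgeR were the ones between syngeneic and non-injured cord for Osmr, Il6ra, Il6st and Socs3. Lif kept the same order, but its 3 lower groups overlapped. Osm was highest with allogeneic MSCs, at 2.07 ± 0.565 CPM, by a margin far below its spread over SCI alone at 2.06 ± 0.461 CPM (SD, n = 3 each).

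Among the 50 tested genes of the pathway lists, edgeR called 0 in each of the 3 comparisons among injured groups, as did limma-voom. DESeq2 called 5 lower with syngeneic MSCs against SCI alone, where 0.593% of all genes were called lower. With allogeneic MSCs against SCI alone DESeq2 called 0, where 71 of 16527 genes were called in either direction. With syngeneic against allogeneic MSCs DESeq2 called 6 lower, where 358 of 16527 genes were called in either direction. An unadjusted p below 0.05 in edgeR was reached by 19 of the 50 with syngeneic MSCs against SCI alone, where 7.96% of all genes were lower and 5.55% higher at that level. It was reached by 3 with allogeneic MSCs against SCI alone, near the 1.17% lower and 1.77% higher of all genes. It was reached by 23 with syngeneic against allogeneic MSCs, where 10.1% of all genes were lower and 4.32% higher. With syngeneic MSCs against SCI alone, 15 of 16 genes known to be induced through STAT3 had a negative log2 fold change, with a median of -0.69, and 8 had an unadjusted p below 0.05. DESeq2 called 3 of the 16 lower and limma-voom 0, where DESeq2 called 0.593% of all genes lower. Without syngeneic library 3 edgeR called 7 lower, where 4.76% of all genes were. Junb, which is also among the immediate early genes, averaged 19.9 ± 6.20 CPM with syngeneic MSCs and 41.5 ± 4.57 CPM after SCI alone (SD, n = 3 each), a log2 fold change of -1.07 (SE 0.20, adjusted p = 0.12). Il1b, the gene of an inflammatory cytokine upstream of Lif, averaged 0.752 ± 0.351 CPM with syngeneic MSCs, against 2.19 ± 0.515 CPM after SCI alone (adjusted p = 0.23). Il1b was also lower without overlap with allogeneic MSCs, at 1.04 ± 0.312 CPM (log2 fold change -1.10, SE 0.37, adjusted p near 1). Clcf1 averaged 2.53 ± 0.452 CPM with syngeneic MSCs and 6.23 ± 2.17 CPM after SCI alone (adjusted p = 0.22).

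Lifr, the LIF receptor chain, went the other way. It averaged 132 ± 9.11 CPM with syngeneic MSCs and 109 ± 3.10 CPM after SCI alone (SD, n = 3 each), without overlap, a log2 fold change of 0.27 that was not called (SE 0.11, adjusted p = 0.34). With allogeneic MSCs against SCI alone, the median of the STAT3-induced genes was 0.07, and 0 of the 16 had an unadjusted p below 0.05 or were called by DESeq2 or limma-voom. Il27ra averaged 3.36 ± 1.3 CPM with allogeneic MSCs and 1.45 ± 0.261 CPM after SCI alone, without overlap, and was not called (log2 fold change 1.18, SE 0.43, adjusted p near 1). With syngeneic against allogeneic MSCs, all 16 STAT3-induced genes had a negative log2 fold change, with a median of -0.72, and 10 had an unadjusted p below 0.05. DESeq2 and limma-voom called 0 of them, and edgeR called 7 without syngeneic library 3, where 6.73% of all genes were called lower.

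**Figure D4:**
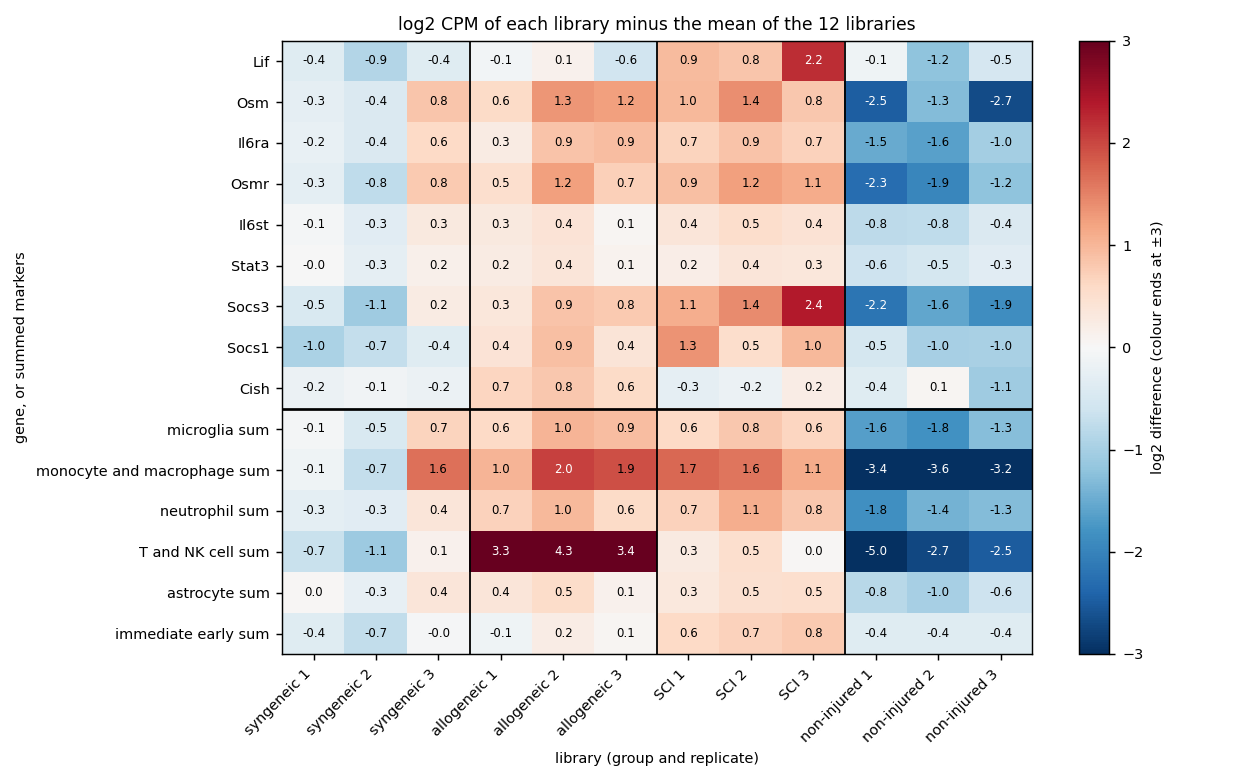
Log2 CPM of the 9 tested genes and of summed cell markers and immediate early genes in each library, as the difference from the mean of the 12 libraries (colour and printed value; columns are libraries by group). Lif is above its mean in the SCI libraries and near or below it in the other groups, and the T and NK cell sum is highest in the 3 allogeneic libraries.

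The genes whose profile over the 12 libraries was nearest to each member were found by the RMS difference of log2 CPM after centring, as a description without a test. Lif was nearest to Fos, at an RMS difference of 0.37, while the SD of Lif itself was 0.93, and then to Zfp36, an immediate early RNA-binding protein gene, and Npas2. Socs3 was nearest to Ptgs2, the gene of inducible cyclooxygenase, at 0.36. Socs1 was nearest to Mmp11, a metalloproteinase gene, at 0.31. Osm was nearest to C5ar1, the complement C5a receptor of myeloid cells, at 0.31.

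Among the more abundant members, Il6ra was nearest to Gpr34, a microglial receptor gene, at an RMS difference of 0.064, and Osmr to Ssc5d at 0.14 and to Tnc, the matrix protein tenascin C, at 0.18. Il6st was nearest to Tead1, a transcription factor gene of the Hippo pathway, at 0.073, and Stat3 to Vwa5a at 0.061. Cish was nearest to H2-T10, a nonclassical class I gene of the major histocompatibility complex, at 0.27. Genes at low counts differ more between libraries by counting alone, so these distances are not comparable between abundant members and Lif, Osm, Socs1 or Cish.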

How the data were processed

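RNA of spinal cord tissue was measured by bulk sequencing in 12 libraries, grouped by the submitters' labels. The authors deposited raw counts, 1 value per Ensembl gene and library. For the build GRCm38, featureCounts 1.5.1, STAR 2.5.1, Trim Galore 0.4.1, Picard, FastQC 0.11.5 and StringTie 1.3.3 are listed, in no order of use, per the submitters' processing notes. Per the labels' protocols the library kit preserved strand after poly(A) selection. Which annotation was counted, whether strand was used and how multiply matching reads were treated is not stated there.

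Of 46078 genes, 16527 passed filterByExpr of edgeR at a minimum count of 10 and a minimum total of 15. All 12 libraries entered 1 robust quasi-likelihood fit with TMM factors, in edgeR 4.0.16 under R 4.3.3 (8 residual degrees of freedom), with the Benjamini-Hochberg correction over all genes of each comparison. The fit was tested on simulated data. Fold changes are on the log2 scale, and standard errors (SE) are derived from the F statistic. CPM was computed from the deposited counts on TMM-scaled totals, log2 CPM used a prior count of 2, and lengths and coordinates came from GENCODE M21 on GRCm38. Lengths join the exons of all transcripts, so levels per kilobase are low estimates. Intervals at 95% cover counting error only.

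Alternatives were other scaling factors, no filter, DESeq2 1.42.0, limma-voom (limma 3.58.1), a fit of only the 2 groups compared, and leaving out libraries. The members, the pathway lists, the marker lists and the tests were chosen with earlier results of these data known, and the immediate early list was added after the levels had been seen. All members are named in every comparison. From each pathway list and comparison the rule takes up to 4 called genes with the smallest p, or 2 where none was called, and the text prints part of these, with the 3 genes most like a member among those with mean log2 CPM of at least 1. The values of 1 gene that the rule takes are not reported here.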

Additional observations from a re-analysis of the deposited data

How the results depend on the processing

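No paired analysis was possible because the labels give the groups no shared replicate numbers. Low counts limit Il6, Osm in non-injured cord and Socs1, and with 3 libraries in each group a single library can decide a call. Over all members, comparisons and alternatives, 623 fold changes kept their sign and their side of the threshold, 30 lost a call, 30 gained one and 18 changed sign. The causes of these changes were not tested. All 8 calls for SCI alone against non-injured cord and 7 of the 8 for allogeneic MSCs against non-injured cord held in every alternative.

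Members called with syngeneic MSCs against SCI alone numbered 3 with DESeq2 and 8 without the 3 libraries set apart, and 0 to 6 with 1 library left out. With syngeneic against allogeneic MSCs they numbered 6 without those 3 libraries and 0 to 4 with 1 library left out. With syngeneic MSCs against non-injured cord they numbered 2 without the filter on low counts, 3 with limma-voom, 0 with only the 2 groups compared and 3 without the 3 libraries, and 0 to 6 with 1 library left out.

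Counts of all genes called moved more. For SCI alone against non-injured cord they were 4266, and 2336 to 3974 with 1 library left out. With syngeneic MSCs against SCI alone they were 6, but 18 without the filter, 126 with DESeq2, 10 with limma-voom, 3 with only the 2 groups compared, 2155 without the 3 libraries and 0 to 866 with 1 library left out. With allogeneic MSCs against SCI alone they were 31, but 50 without the filter, 71 with DESeq2, 17 with only the 2 groups compared, 49 without the 3 libraries and 0 to 29 with 1 library left out. With syngeneic against allogeneic MSCs they were 101, but 358 with DESeq2, 21 with only the 2 groups compared, 3826 without the 3 libraries and 24 to 1178 with 1 library left out. With syngeneic MSCs against non-injured cord they were 883, but 1409 with DESeq2, 172 with only the 2 groups compared and 358 to 1752 with 1 library left out. With allogeneic MSCs against non-injured cord they were 4112, but 2738 with only the 2 groups compared, 6222 without the 3 libraries and 2613 to 4669 with 1 library left out.

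Signs changed only among values that were not called. With allogeneic MSCs against SCI alone and 1 library left out, the log2 fold change ran between -0.13 and 0.21 for Osm, -0.14 and 0.17 for Il6ra, -0.12 and 0.0065 for Stat3, -0.39 and 0.14 for Clcf1 and -0.042 and 0.20 for Il11ra1. That of Osm was 0.0052 with RLE factors, 0.0085 with DESeq2 and 0.21 without the 3 libraries, and that of Il6ra 0.17 without them. With syngeneic MSCs against SCI alone, Cish ran between -0.20 and 0.036. With syngeneic MSCs against non-injured cord, the values ran between -0.25 and 0.31 for Lif, -0.073 and 0.41 for Socs1 and -0.049 and 0.52 for Cish. Lif was 0.028 with library totals only and 0.0068 with limma-voom, and Socs1 was -0.16 without the 3 libraries.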
